A study of Mus musculus with 13 samples.

Results

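The 6 enzymes of the urea cycle route, encoded by Nags, Cps1, Otc, Ass1, Asl and Arg1, were examined for binding of the glucocorticoid receptor (GR) and of the nuclear receptor corepressor NCOR1 in mouse liver. A peak was counted for a member when that gene had the nearest protein-coding gene body to the peak's centre, within 100 kb. By this rule 121 of the 217044 peaks in the 7 deposited lists belonged to the 6 genes. Peaks overlapping by at least 1 bp across lists were joined, which gave 40 sites, numbered here from the lower to the higher coordinate within each gene. Coordinates are those of mm10, and a site spans all peaks joined in it. The gene bodies are chr11:102145513-102149528 for Nags, chr1:67122426-67231267 for Cps1, chrX:10252230-10321024 for Otc, chr2:31470270-31520670 for Ass1, chr5:130011258-130024381 for Asl and chr10:24915207-24927470 for Arg1. Chromatin immunoprecipitation sequencing (ChIP-seq) was done on livers of male mice of the genotypes GFP (control) and CRE (called dKO in the series' design, a knockout that includes NCOR1). Vehicle or 1 mg/kg dexamethasone, a synthetic glucocorticoid, was injected at ZT8, in hours of zeitgeber time, and tissue was collected after a further 2 h. GR was profiled in both genotypes under either treatment, with 2 libraries for each of these 4 groups. For NCOR1 there was 1 library each of vehicle-treated control and dKO liver and 2 of dexamethasone-treated control liver, and 1 input library served all lists. The age of the animals, how GFP and CRE were delivered and the cell type that CRE reached are not given in the sources used here.

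The urea cycle turns ammonia from amino acid breakdown into urea, mainly in periportal hepatocytes. Nags makes N-acetylglutamate, the obligate activator of Cps1, and Cps1 makes carbamoyl phosphate in the mitochondrion. Otc joins carbamoyl phosphate to ornithine, Ass1 and Asl carry the product through argininosuccinate to arginine, and Arg1 releases urea. Glucocorticoids and glucagon are known to raise transcription of these genes when protein is used as fuel, and GR acts as a hormone-bound transcription factor at enhancers, whereas NCOR1 is a scaffold for the histone deacetylase HDAC3.

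Each list stands for a group as a whole, and the libraries of a group share it, so no value below has a spread between animals and no difference between groups was tested. The lists rested on 17.5 M to 36.9 M tags (M, 1000000). Peaks are 200 bp wide and carry a normalized tag count, in tags per 10 M, whose list medians ranged from 10.0 to 15.5. Intervals given for ratios are 95% exact binomial intervals of the tags behind them and cover counting error only. Near 8 hepatocyte markers there were 58 NCOR1 peaks in control vehicle and 5 in dKO vehicle, while near 5 endothelial markers there were 29 and 35. Of the 8 hepatocyte markers 8 had such a peak in control and 4 in dKO, and of the 5 endothelial markers 5 and 5. Among endothelial markers the dKO count was higher at Kdr (6 and 16), Clec4g (1 and 4) and Pecam1 (7 and 8). It was lower at Stab2 (13 and 6) and Lyve1 (2 and 1), and the whole lists held 39458 and 17282 peaks. Near 6 Kupffer cell and leukocyte markers there were at most 3 peaks in any list, near 4 stellate cell markers at most 8 and near 3 cholangiocyte markers at most 13. In whole liver, fewer binding cells and less binding per cell cannot be told apart.

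NCOR1 peaks of control vehicle lay at or just before the starts of Ass1 (site 1, tag count 44.7), Nags (site 3, 24.2) and Otc (site 4, 12.4). Such peaks also lay close to a gene body end at Arg1 (site 2, 34.0) and Cps1 (site 7, 34.9), whose strand was not given. RefSeq promoter sequences (GRCm38.p6, plus strand) were at hand only for Ass1, Nags and Otc among the 6 members, and these 3 are shown for this reason. Only bases before the annotated gene body are printed, 5′ to 3′, and capitals mark the bases that lay inside the NCOR1 control vehicle peak. The Ass1 stretch is chr2:31470020-31470269, that of Nags is chr11:102145263-102145512 and that of Otc is chrX:10252055-10252229.
Ass1: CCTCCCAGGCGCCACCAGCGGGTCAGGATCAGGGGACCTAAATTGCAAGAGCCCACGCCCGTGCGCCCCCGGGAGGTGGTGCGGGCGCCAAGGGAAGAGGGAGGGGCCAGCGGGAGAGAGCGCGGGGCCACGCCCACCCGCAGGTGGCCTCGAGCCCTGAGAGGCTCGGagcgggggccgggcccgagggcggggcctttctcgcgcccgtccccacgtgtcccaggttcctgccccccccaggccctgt
Nags: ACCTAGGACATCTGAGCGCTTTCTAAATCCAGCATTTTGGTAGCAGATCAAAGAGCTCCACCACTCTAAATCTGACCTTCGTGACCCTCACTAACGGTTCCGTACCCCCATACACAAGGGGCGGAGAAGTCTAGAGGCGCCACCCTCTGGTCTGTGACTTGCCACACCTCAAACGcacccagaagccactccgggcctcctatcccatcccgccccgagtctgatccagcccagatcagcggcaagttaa
Otc: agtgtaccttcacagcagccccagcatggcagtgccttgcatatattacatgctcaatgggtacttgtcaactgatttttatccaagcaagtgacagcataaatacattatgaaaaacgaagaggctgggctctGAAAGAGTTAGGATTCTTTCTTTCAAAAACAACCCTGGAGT
In the 250 bases before the start site, Ass1 had 75.6% G+C and 23 CpG, Nags 55.6% and 11, and Otc 43.6% and 1, against medians of 52.4% and 6 over 32851 RefSeq promoters. The Otc start site used, chrX:10252305, lies inside the annotated gene body. The Otc window therefore runs past the printed stretch, which has 175 bases and 41.7% G+C. The full palindromic glucocorticoid response element, its single arm AGAACA, the C/EBP motifs TTGCGCAA and TTGCNNAA, the forkhead motif TGTTTAC, the HNF4 motif CAAAGTCCA and the cAMP response element TGACGTCA were searched on both strands. TTGCGCAA is contained in TTGCNNAA, and AGAACA in the full element. None of the 7 was present in these 3 windows, and over all promoters they occurred in 0.00913%, 16.1%, 0.164%, 9.56%, 3.17%, 0.384% and 1.55% in the same order. Sequences of the distal and intragenic peaks were not used here.

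All 6 genes had GR peaks in each of the 4 GR lists. In control liver 21 member peaks were called under vehicle and 22 under dexamethasone, and in dKO liver 13 and 16. The whole lists held 30011, 40853, 23362 and 28378 peaks in the same order. Of the 40 sites, 25 were called in at least 1 GR list (62.5%, against 63.6% of the 79141 sites joined in the same way over the series) and 11 in all 4 (27.5%, against 20.6%). Of the 40 sites 16 lay inside a gene body. The 11 constant sites were 3 of Cps1, 2 each of Nags, Asl and Arg1, and 1 each of Otc and Ass1. The level differed widely between members: the highest control dexamethasone count was 155.7 at Cps1, 86.4 at Ass1, 77.6 at Arg1, 22.1 at Asl, 21.6 at Nags and 10.7 at Otc. The best sites of Cps1, Ass1 and Arg1 thus lay far above the list median of 12.0, and the best Otc site below it. Other control dexamethasone peaks of these genes reached down to 5.83 at Cps1, 9.99 at Ass1 and 15.5 at Arg1.

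**Figure D1:**
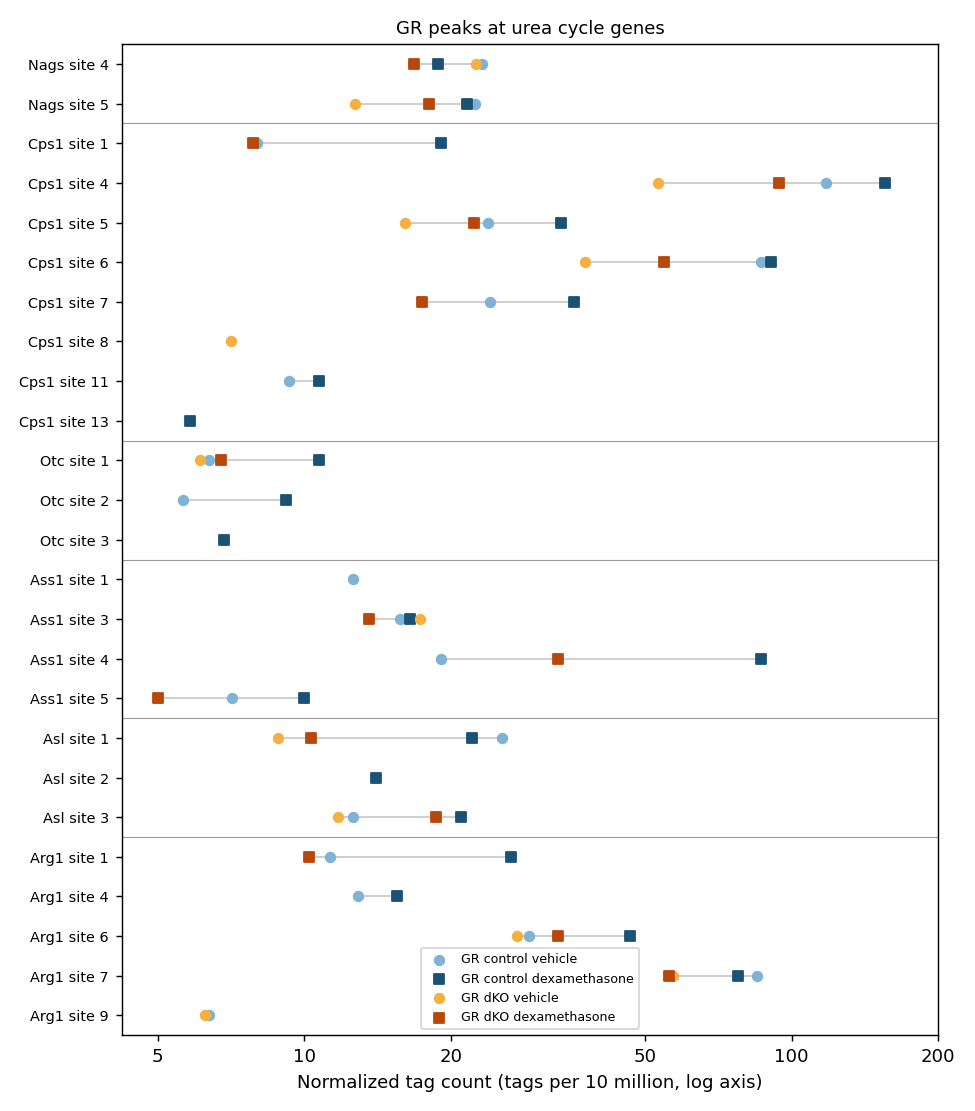
Normalized tag count (tags per 10 M, log axis) of each of the 25 GR sites at urea cycle genes, with 1 point per pooled list in which the site was called and a grey line over their range. Cps1 sites 4 and 6, Arg1 site 7 and, under dexamethasone, Ass1 site 4 stand furthest right, and where Cps1 sites were called in both genotypes the dKO points lie left of the control points.

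Nags, the source of the Cps1 activator, had 2 GR sites, both inside its gene body next to the start. Site 4 (chr11:102145531-102145761) had tag counts of 23.1 under vehicle and 18.8 under dexamethasone in control, and of 22.5 and 16.8 in dKO. Both dexamethasone values were the lower ones, by ratios of 0.814 (0.557 to 1.18) in control and 0.747 (0.518 to 1.09) in dKO, and each interval included 1. Site 5 (chr11:102146162-102146386) had 22.4, 21.6, 12.7 and 18 in the same order, which is kept below wherever 4 GR values follow each other. Here dKO vehicle stood apart as the lowest, at 0.567 (0.373 to 0.86) of control vehicle.

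Cps1, the rate-limiting entry enzyme, had the most sites of the 6 genes (13, of which 8 in GR lists) and the strongest. Site 4 lay 18.3 kb outside the lower-coordinate end of the gene body (chr1:67103961-67104230), with GR counts of 117.9 (vehicle) and 155.7 (dexamethasone) in control liver against 53.3 and 94.2 in dKO liver. It ranked 192nd of 40853 peaks in the control dexamethasone list and 189th of 30011 under vehicle. Dexamethasone over vehicle was 1.32 (1.14 to 1.53) in control and 1.77 (1.46 to 2.15) in dKO, and neither dKO value reached the control vehicle value. Site 6, 5.61 kb outside the same end (chr1:67116640-67116943), had 86.5, 90.6, 37.7 and 54.8. The control values differed little there (1.05, 0.875 to 1.25), while dKO vehicle was 0.436 (0.344 to 0.543) of control vehicle. Site 5, 8.9 kb outside (chr1:67113407-67113645), had 23.8, 33.6, 16.1 and 22.3. Site 7, just inside the body (chr1:67122776-67123066), had 24.0, 35.8, no dKO vehicle peak and 17.4. Site 1, 29.8 kb outside (chr1:67092487-67092741), had 8.01, 19.1, no dKO vehicle peak and 7.83, so its control dexamethasone value was 2.38 (1.43 to 4.07) times the vehicle value. Sites 1, 5 and 7 each had their highest GR count in control dexamethasone. The other 3 GR sites (8, 11 and 13) had counts from 5.83 to 10.7 and were called in 1 or 2 GR lists. The gene table used gives no strand for Cps1, Asl and Arg1, so sides are named by coordinate.

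**Figure D2:**
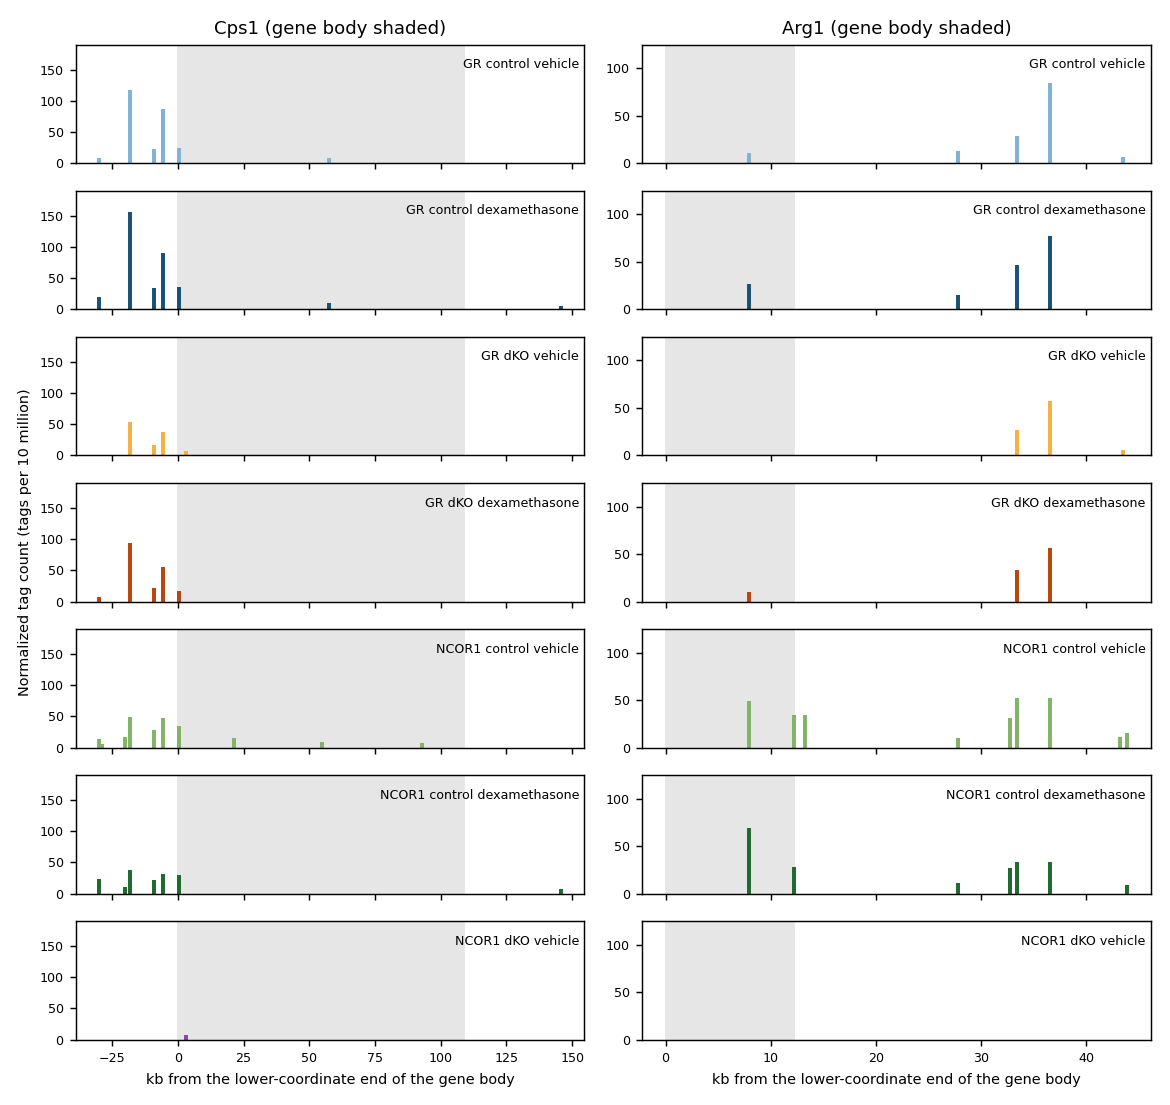
Maps of Cps1 (left) and Arg1 (right), with distance in kb from the lower-coordinate end of the shaded gene body on the x axis and normalized tag count on the y axis, 1 row per pooled list. Cps1 binding clusters within 29.8 kb below its body, Arg1 GR binding peaks 24.3 kb above its body, and the dKO NCOR1 row holds 1 low peak at Cps1 and none at Arg1.

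Otc, an X-linked gene with 1 copy in males, had the weakest GR binding at its member sites. Site 1, 17.5 kb outside the lower end (chrX:10234617-10234878), had counts of 6.37, 10.7, 6.1 and 6.74. The control ratio of 1.68 (0.928 to 3.31) rested on few tags and its interval included 1. Site 2 was called in both control lists (5.64 and 9.16) and site 3 in control dexamethasone (6.83), and no GR peak was called within the Otc gene body. A stronger GR site, 42.6 kb from Otc and inside the neighbouring gene Rpgr (chrX:10209564-10209764), had 58.8, 42.6, 66.8 and 34.2 and is no member site. Over all peaks of the control dexamethasone list the median count was 10.2 on chromosome X and 12.2 on autosomes, whereas under vehicle it was 13.3 on both.

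Ass1, which forms argininosuccinate, held the site with the largest dexamethasone ratio of the 6 genes. Site 4 lay inside the gene body, 36.7 kb from its start (chr2:31506901-31507114), and had 19.1 under vehicle and 86.4 under dexamethasone in control, against no peak and 33.2 in dKO. The control ratio was 4.52 (3.37 to 6.26), higher than at 99.1% of the 24576 GR sites called in both control lists. The dKO dexamethasone value was 0.384 (0.304 to 0.485) of that in control. Site 3, also inside the body (chr2:31482780-31483006), had 15.7, 16.5, 17.3 and 13.6, a narrow range with no order by drug or genotype. Site 1, 0.201 kb before the gene start, had a GR peak in control vehicle (12.6) and in no other GR list, with 4.04-fold over the local 10 kb, close to the 4-fold required. A stronger GR site lay 9.79 kb from Ass1 but inside the neighbouring gene Hmcn2 (chr2:31460378-31460578), with 146.0, 141.2, 46.4 and 82. It is no member site by the rule.

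Asl, which splits argininosuccinate into arginine and fumarate, had 2 constant sites that behaved differently. Site 1, 2.87 kb outside the lower end (chr5:130008254-130008514), had counts of 25.5, 22.1, 8.83 and 10.3. Both dKO values were under both control values, with dKO over control at 0.346 (0.219 to 0.554) under vehicle and 0.466 (0.3 to 0.725) under dexamethasone. Site 3, in the gene body (chr5:130022429-130022651), had 12.6, 21.0, 11.7 and 18.6, so the dexamethasone values were the higher ones, by 1.67 (1.07 to 2.57) in control and 1.59 (1.04 to 2.49) in dKO. Site 2 was called in control dexamethasone alone (14.0), 658 bp from the vehicle peak of site 3 and at 4.15-fold over the local 10 kb. A stronger GR site, 7.27 kb from Asl and inside the neighbouring gene Crcp (chr5:130031547-130031747), had 53.3, 60.1, 17.5 and 19.9 and is no member site.

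Arg1, the last enzyme, had its strongest GR binding 24.3 kb outside the higher-coordinate end, at site 7 (chr10:24951621-24951929), with counts of 84.8, 77.6, 57.2 and 56.1. The drug ratios were 0.915 (0.76 to 1.1) and 0.981 (0.793 to 1.21), and both dKO values were the lower ones. Site 6, 21.1 kb outside (chr10:24948481-24948757), had 28.9, 46.5, 27.3 and 33.2, with a control drug ratio of 1.61 (1.22 to 2.16). Site 1, inside the body (chr10:24923000-24923329), had 11.3, 26.6, no dKO vehicle peak and 10.2, a control drug ratio of 2.35 (1.54 to 3.7). Sites 1 and 6 were thus highest in control dexamethasone, and site 7 in control vehicle. Sites 4 and 9 had counts from 6.26 to 15.5 and were called in 2 GR lists each.

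Dexamethasone against vehicle in control liver asks where the drug adds GR at these genes. Of 22 control dexamethasone member peaks, 3 had no vehicle peak (13.6%, Clopper-Pearson interval 2.91 to 34.9), against 39.8% of all peaks of the list. They were Cps1 site 13, Asl site 2 and Otc site 3, with counts of 5.83, 14.0 and 6.83. In the other direction 2 of 21 vehicle member peaks had no dexamethasone peak, against 18.1% of that list. Most member sites were thus called under vehicle too, and of the 16 above the list median 1 was dexamethasone-only (6.25%, against 24.2% of all). At the 19 sites in both lists the median ratio was 1.41, from 0.814 to 4.52, beside 1.05 over all such sites, and 14 of the 19 lay above that overall median. A ratio of at least 1.5 was seen at 7 of 19 (36.8%), against 25.1% of all, and a ratio of at most 1/1.5 at 0, against 15.9%. The 7 were Ass1 site 4, Cps1 site 1, Arg1 sites 1 and 6, Asl site 3 and Otc sites 1 and 2, while both Nags sites were under 1.

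In dKO liver 5 of 16 dexamethasone member peaks had no vehicle peak (31.2%, 11 to 58.7), against 35.4% of all. They were Cps1 sites 1 and 7, Arg1 site 1 and Ass1 sites 4 and 5, and each of the 5 had a GR peak in both control lists. Ass1 site 4 (33.2) and Cps1 site 7 (17.4) were above the list median of 10.7, and the other counts were 5.01 to 10.2. These are 2 of 11 such peaks (18.2%, against 23.5% of all). Of 13 vehicle member peaks 2 had no dexamethasone peak, against 21.5%. The 11 sites in both dKO lists had a median ratio of 1.22, from 0.747 to 1.77, beside 0.929 over all, and 9 of the 11 lay above that overall median. At least 1.5-fold was reached by Cps1 site 4 and Asl site 3, which is 18.2% of the 11 against 19.5% of all sites. A ratio of at most 1/1.5 was seen at 0 member sites, against 31.4% of all. Of the 11 sites with a ratio in both genotypes, 5 had the larger ratio in dKO and 6 in control, and this difference was not tested.

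**Figure D3:**
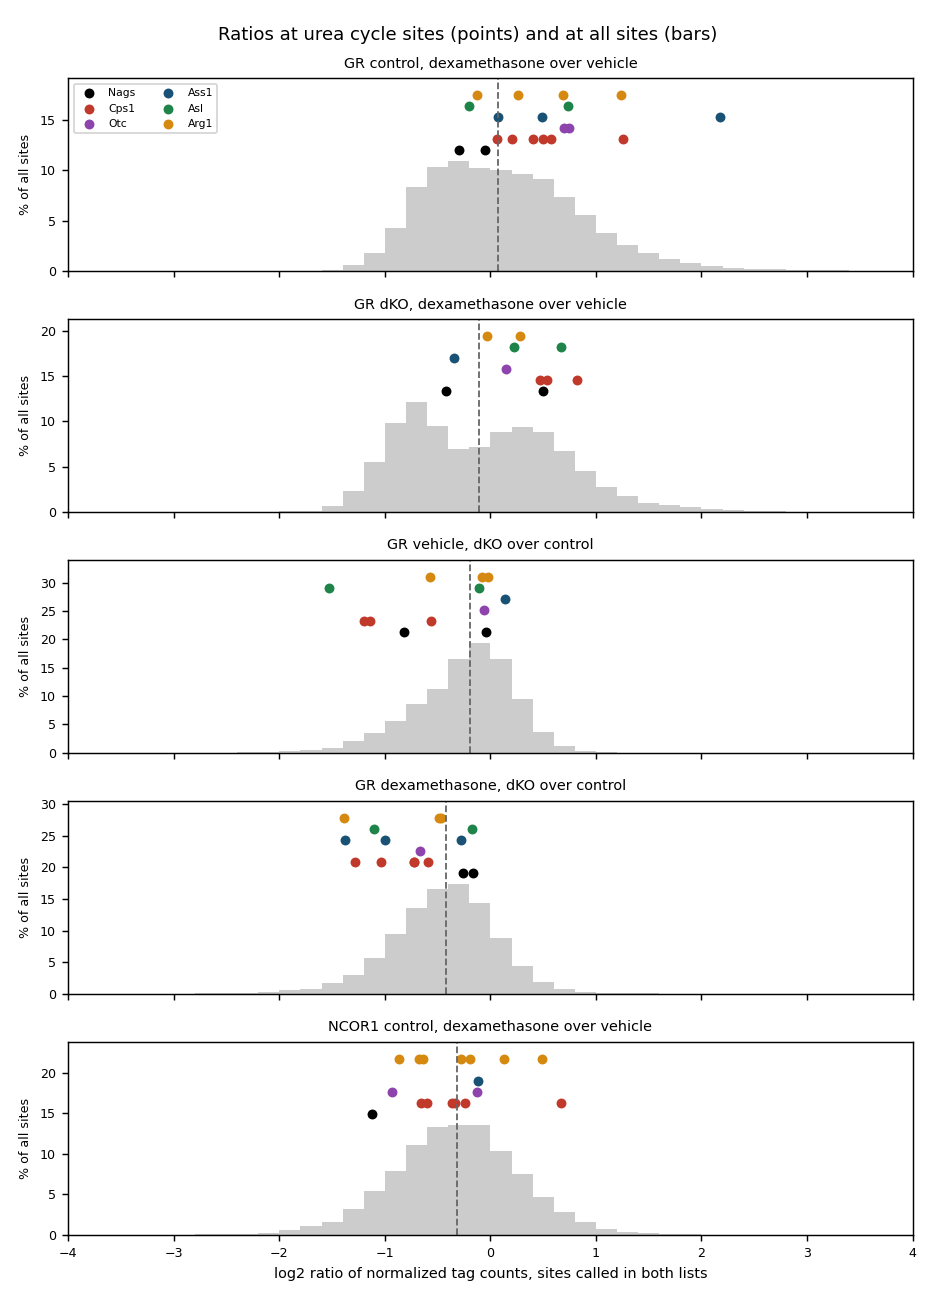
Log2 ratio of normalized tag counts between 2 pooled lists on the x axis, with grey bars giving the percentage of all sites called in both lists per bin of 0.2, the dashed line their median, and points the member sites coloured by gene, at heights without meaning. Ass1 site 4 lies far right in control, the dKO bars for the drug have 2 humps on either side of their median, and under dexamethasone the 16 member points all lie left of 0 for dKO over control.

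Comparing dKO with control liver asks how GR binding differs between the genotypes. Under vehicle 9 of 21 control member peaks had no dKO peak (42.9%, 21.8 to 66), against 35.1% of all, and these were sites of Cps1 (3), Arg1 (2), Ass1 (3) and Otc (1). Of them Cps1 site 7 (24.0) and Ass1 site 4 (19.1) were above the list median of 13.3, which is 2 of 11 such peaks (18.2%, against 14.1% of all). Among the 13 dKO vehicle member peaks 1 was not in control, Cps1 site 8 (7.06), against 16.6% of all. The 12 sites in both lists had a median dKO over control ratio of 0.793, from 0.346 to 1.1, beside 0.875 over all. Of these 12, 11 were under 1, but relative to the overall median 6 were above and the rest below. A ratio of at most 1/1.5 was seen at 4 (33.3% against 22.3%): Asl site 1, Cps1 sites 6 and 4, and Nags site 5. None reached 1.5, against 1.66% of all.

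Under dexamethasone 6 of 22 control member peaks had no dKO peak (27.3%, 10.7 to 50.2), against 39.5% of all, and 0 of 16 dKO member peaks lacked a control peak, against 12.9%. Arg1 site 4 (15.5) and Asl site 2 (14.0) were the 2 absent sites above the list median, of 16 such peaks (12.5%, against 21.1% of all). At 16 of 16 sites in both lists the dKO value was the lower one, with a median ratio of 0.617, from 0.383 to 0.894. Over all sites the median was 0.746 and 16.3% had a ratio above 1, so the lists as wholes also lay lower in dKO. Relative to that overall median 4 of the 16 were above and 12 below. At most 1/1.5 was seen at 10 of the 16 (62.5%), against 36.5% of all, and at least 1.5 at 0, against 1.46%. The lowest ratios were those of Arg1 site 1 (0.383, 0.251 to 0.589), Ass1 site 4, Cps1 site 1 (0.41, 0.247 to 0.671) and Asl site 1. The 4 GR comparisons share lists pairwise, so their ratios are not independent of each other.

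NCOR1 in control liver was found near all 6 genes under vehicle (29 of 39458 peaks) and near 5 under dexamethasone (19 of 37700 peaks), where Asl had none. Of the 40 sites 32 were called in an NCOR1 list. Of these, 17 were also in a GR list (42.5% of the 40, against 36.2% of all joined sites). The other 15 were not (37.5%, against 36.4%). The highest NCOR1 value of the 40 sites was at Arg1 site 1, with 49.2 under vehicle and 68.9 under dexamethasone, a ratio of 1.4 (1.1 to 1.81). Arg1 sites 6 and 7 had 52.6 each under vehicle and 33.7 and 33.0 under dexamethasone. For Cps1 the values were 48.4 and 37.5 at site 4, 47.5 and 31.4 at site 6, 34.9 and 29.5 at site 7, and 27.6 and 21.8 at site 5, the vehicle value being higher each time. Cps1 site 1 went the other way, with 14.3 under vehicle and 22.8 under dexamethasone (1.59, 1.02 to 2.64). Nags site 5 had 47.8 and 21.9 (0.458, 0.334 to 0.63), the lowest ratio among member sites. At Otc both sites were weak, 13.2 and 12.1 at site 2 and 12.4 and 6.5 at site 4, which covers the gene start. Near the Ass1 start the vehicle peak (44.7, chr2:31469988-31470188) and the dexamethasone peak (34.8, chr2:31470224-31470424) did not overlap, their centres lying 236 bp apart. The capitals of the printed Ass1 promoter therefore mark the vehicle peak alone.

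**Figure D4:**
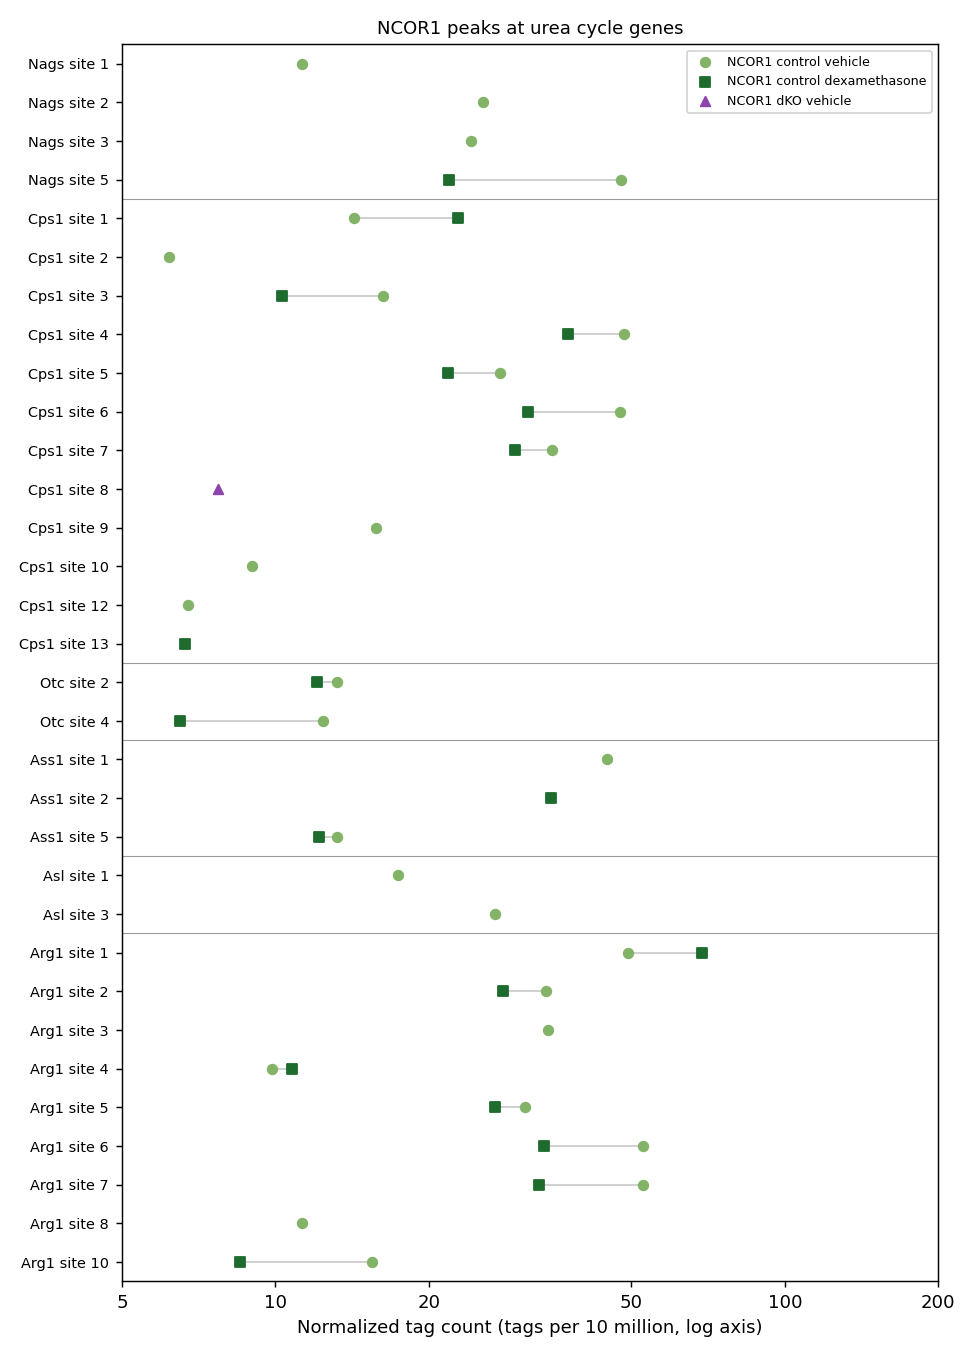
Normalized tag count (tags per 10 M, log axis) of each of the 32 NCOR1 sites at urea cycle genes, with 1 point per pooled list in which the site was called. Arg1 site 1 under dexamethasone stands furthest right at 68.9, the dexamethasone point lies left of the vehicle point at 14 of 17 sites with both, and the single dKO triangle is Cps1 site 8.

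Of 29 NCOR1 vehicle member peaks 12 had no dexamethasone peak (41.4%, 23.5 to 61.1), against 32.8% of all, although the dexamethasone list was the deeper one, with 36.9 against 17.8 M tags. The tag threshold, in tags not normalized for depth, was 16 in the dexamethasone list and 11 in the vehicle list. In normalized counts the dexamethasone list reached lower, with a lowest peak of 3.66 against 5.06 under vehicle. The 12 included 3 of 4 Nags peaks (11.3, 25.6 and 24.2), both Asl peaks (17.4 and 27.0) and Arg1 site 3 (34.3). The highest of them was Ass1 site 1 (44.7), with the dexamethasone peak of Ass1 site 2 (34.8) 236 bp away. Matching by centres within 500 bp gave 11 vehicle-only peaks. Above the list median 7 of 19 were vehicle-only (36.8%, against 18.7% of all). In the other direction 2 of 19 member peaks, among them Ass1 site 2, had no vehicle peak, against 29.6%. The 17 sites in both lists had a median ratio of 0.79, beside 0.804 over all sites. Of the 17, 14 were under 1, and 8 were above the overall median. A ratio of at most 1/1.5 was seen at 7 (41.2%, against 32% of all) and of at least 1.5 at 1 (against 6.24%).

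In dKO vehicle liver 0 of the 29 control vehicle NCOR1 member sites had a peak, so 100% (88.1 to 100) were control-only, against 79.5% of that list. No member site thus had a ratio, while of the 8097 sites in both lists 16.5% had at least 1.5 and 42.8% at most 1/1.5. The list of dKO vehicle held 17282 NCOR1 peaks in all, on 17.5 M tags. About 2.07% of its tags lay in peaks, against 8.52% in control vehicle. Its 1 member peak, Cps1 site 8 inside the gene body (chr1:67125532-67125755), had 7.73 and was absent from control, as were 53.1% of dKO peaks. A GR peak of dKO vehicle (7.06) overlapped it and no other GR list had one there. The peaks near hepatocyte markers were also fewer in dKO (58 and 5), as were those near Stab2 and Lyve1 among the endothelial markers. Summed over the 5 endothelial markers they were not fewer (29 and 35). The part of cell makeup in the result was not tested.

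GR and NCOR1 shared 17 of the 40 sites (42.5%, against 36.2% of all joined sites), while 15 were called for NCOR1 alone (37.5%, against 36.4%) and 8 for GR alone (20%, against 27.4%). Under vehicle 15 of 21 GR member peaks overlapped an NCOR1 peak (71.4%, 47.8 to 88.7), against 54.3% of all GR peaks of the list, and above the list median 8 of 11 did (72.7%, against 46.3%). Under dexamethasone 13 of 22 did (59.1%, 36.4 to 79.3), against 48.9%, and above the median 10 of 16 (62.5%, against 56.4%). Seen from NCOR1, 15 of 29 vehicle peaks (51.7%, against 41.3%) and 13 of 19 dexamethasone peaks (68.4%, against 53%) overlapped GR. Above the list median these shares were 11 of 19 (57.9%, against 57.4% of all) under vehicle and 10 of 13 (76.9%, against 64.9%) under dexamethasone. Of the 11 sites in all 4 GR lists 8 had an NCOR1 peak (72.7%, against 50.4% of the 16338 such sites of the series). The 3 without were Nags site 4, Ass1 site 3 and Otc site 1. Ass1 site 4, with the largest drug ratio, had no NCOR1 peak in any list. At Arg1 sites 1 and 4 and Cps1 site 1 the dexamethasone value was the higher one in control for GR and for NCOR1 alike. At Arg1 site 4 the intervals of both ratios, 1.2 (0.776 to 1.96) and 1.1 (0.599 to 1.98), included 1.

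Genes that feed the cycle were taken from a list of 11. Slc25a15 and Slc25a13 carry ornithine and aspartate across the mitochondrial membrane, Car5a supplies bicarbonate to Cps1, Slc7a2 takes up cationic amino acids, and Glul removes ammonia as glutamine in pericentral cells. Of the 11 genes, 8 had a GR peak under vehicle and 9 under dexamethasone in control, and 6 and 8 in dKO. Glud1 and Arg2 had no GR peak in any list. The strongest control dexamethasone site of Glul (167.3) lay in its gene body and had 118.1 under vehicle there, while the dKO counts were 80.1 and 138.1. The best Slc25a13 site, 25.0 kb outside the gene body, had 16.0 and 131.9 in control, against no vehicle peak and 50.6 in dKO. At the best Slc25a15 site, 3.27 kb outside, GR was called under dexamethasone alone, with 82.1 for control and 19.3 for dKO. Of the 45 control dexamethasone peaks of the 11 genes 26 had no vehicle peak, against 3 of 22 at the cycle enzymes and 39.8% of the list. At sites in both control lists the median drug ratio was 1.34 for the 11 genes (19 sites), 1.03 for the gluconeogenic enzymes Pck1, G6pc, Fbp1 and Pcx (12 sites) and 1.38 for 8 amino acid catabolic genes such as Tat and Tdo2 (22 sites), beside 1.41 for the urea cycle. For dKO over control under vehicle these medians were 0.576, 0.518 and 0.532, beside 0.793. The urea cycle value fell in a gap without sites, between Cps1 site 5 (0.676) and Asl site 3 (0.929). Its log2 was -0.34 and became -0.56 with 100 bp overlap or within 10 kb, so it is not a stable value. The differences between lists were not tested.

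Over the 7 lists the genes nearest to Cps1 in their highest tag counts were Rtkn2, Mast3 and Plppr1, at Euclidean distances of 0.377, 0.47 and 0.475 on log2(1 + tag count). Cps1 was chosen for this as the member with the highest control dexamethasone GR count.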

How the data were processed

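ChIP-seq of GR and NCOR1 in mouse liver was deposited as 7 peak lists, 1 per antibody, genotype and treatment, each made on 1 pooled tag directory per group, per the file headers and labels. The submitters' processing notes name Trim Galore 0.6.4, BWA 0.7.17, HOMER 4.11, bedtools 2.29.2 and the mm10 build. Per the file headers, HOMER called peaks of 200 bp with at least 4-fold over input and 4-fold over the local 10 kb. The signal of a peak is the normalized tag count per 10 M tags (M, 1000000), as deposited by the authors, and the deposited fold ratios over input and over the local region served as filters and descriptions. Per the labels, GR libraries were not size selected, while NCOR1 and input libraries were. Because each group has 1 list, replicates cannot be compared, and no test between groups was made.

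Peaks were assigned to the nearest of 21900 protein-coding gene bodies of RefSeq GRCm38.p6, and 1 listed symbol, Ca5a, was found under its current name Car5a. Lists were matched by an overlap of at least 1 bp, and a peak missing from a list means that it was not called there at that depth. Shares of peaks have exact Clopper-Pearson intervals (95%), although neighbouring sites of 6 genes in 1 pooled list are not independent draws. Ratios have exact binomial intervals (95%) from tags back-calculated from the normalized counts and the list's total, which PCR copies can make too narrow. A ratio of at least 1.5 or at most 1/1.5 served as a descriptive threshold. Described in full were the highest GR and NCOR1 site of each member, the sites in all 4 GR lists and the dexamethasone-only sites above the median of their list. The members, gene lists and rules were chosen with earlier results of these data known. Python 3.11.15, pandas 2.3.3, numpy 2.4.6, scipy 1.17.1 and matplotlib 3.10.9 were used, and the matching was tested on simulated data. Alternatives were a wider overlap, matching by centres, 8-fold over input, a 10 kb limit, lists of equal length and centred ratios. Peak sequences and the exon or intron position of sites are not given here, because no genome sequence or exon annotation was used.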

Additional observations from a re-analysis of the deposited data

Results flagged for a closer look

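At 3 of the 11 sites called in all 4 GR lists the dexamethasone over vehicle ratio pointed in opposite directions in the 2 genotypes. The log2 ratio at Nags site 5 was -0.05 in control and 0.50 in dKO, a difference of 0.56 (dKO minus control). Ass1 site 3 had 0.07 in control and -0.35 in dKO, a difference of -0.42. At Asl site 1 the values were -0.21 and 0.22, a difference of 0.43. The difference between genotypes was not tested, since each value comes from 1 list per group, and the counting interval of each of the 6 ratios included 1. Groups hold too few samples for a check of single outlying libraries.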

How the results depend on the processing

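Of 69 values recomputed under the alternatives, 43 stayed within the set margins and 26 moved beyond them. The 49 counts among them cannot change sign, and of the 20 median log2 ratios 0 did. With at least 8-fold over input, member peaks numbered 13 in GR control vehicle, 8 in GR dKO vehicle and 10 in GR dKO dexamethasone. Under the same limit, dexamethasone-only sites numbered 1 in control and 2 in dKO, and control-only GR sites 4 under vehicle and 3 under dexamethasone. Within 10 kb of the gene body, member peaks numbered 13, 13 and 8 in GR control vehicle, control dexamethasone and dKO vehicle, and 17 and 9 in NCOR1 control vehicle and dexamethasone. The same 10 kb limit left 1 dexamethasone-only site in control, 2 control-only GR sites under dexamethasone, 6 control dexamethasone GR sites with NCOR1 and 17 NCOR1 sites absent from dKO. With lists of equal length, 1 control dexamethasone-only site and 16 NCOR1 sites absent from dKO remained countable.

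Median log2 ratios of dexamethasone over vehicle within 10 kb were 0.35 in GR control and 0.47 in GR dKO, beside 0.49 and 0.28. For GR under vehicle, dKO over control was -0.14 after centring on all sites, -0.56 with 100 bp overlap, -0.57 with 8-fold over input and -0.56 within 10 kb, beside -0.34. After centring, the value was -0.27 for GR under dexamethasone, beside -0.70, and -0.026 for NCOR1 dexamethasone over vehicle, beside -0.34. Centring subtracts the median over all sites in both lists, which was -0.193 for GR under vehicle, -0.423 under dexamethasone and -0.315 for NCOR1. For GR under vehicle, 100 bp overlap left Arg1 site 9 (-0.025) unmatched, and the median became the Cps1 site 5 value (-0.564). The cause of the remaining shifts was not tested. The ratio of NCOR1 in dKO over control had no value under any setting, because no member site was in both lists. No paired analysis was possible because each deposited list pools the libraries of a group and carries no replicate numbers, and for the same reason no single replicate could be left out. Depth limits the weak sites: at Otc the counts rest on few tags.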
